A study of Mus musculus with 36 samples.

Results

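The genes described here encode RNA polymerase II and the factors that hold it near the start of a gene or release it into elongation. They are the rows of the deposited count table whose symbol was on a list of 43, and all 43 were found among the 54842 genes of the table. The libraries came from embryonic stem cells of the mouse, grown in 2i medium with LIF and no serum, conditions known to hold them in the naive state. The 12 groups, each of 3 libraries, combined a cell line, a light treatment and a time. The line was either transfected with LiTEC, a light-controlled construct, or wild type (WT), and all cultures of both lines had been given doxycycline at 2 µg/ml over 2 days. Lit cultures received blue light from an LED panel for 30 min and dark cultures none. RNA was collected at 0, 1 and 4 h after that period, so the groups were LiTEC lit, LiTEC dark, WT lit and WT dark at each time. Replicate 1 of every group carried batch 1 in its title and replicates 2 and 3 carried batch 2. Whether the LiTEC line was 1 clone, which promoter drove the construct and whether the replicates were grown separately is not stated in the labels. The p-values therefore describe the spread among libraries, part of which may be technical.

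RNA polymerase II starts transcription and then often stops shortly downstream, where the factors DSIF and NELF hold it. Release needs P-TEFb, the kinase Cdk9 with a cyclin T, which phosphorylates DSIF, NELF and the tail of the largest polymerase subunit. Much P-TEFb is held inactive by Hexim1 on the 7SK RNA, and active P-TEFb is brought to genes by BET proteins and by the super elongation complex. In embryonic stem cells many genes carry paused polymerase.

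Library totals ran from 11132970 to 21842256 counts, and all 43 genes were among the 18193 that passed the filter on low counts. The 10 markers of naive embryonic stem cells summed to between 3170 and 4690 CPM (counts scaled to a common library size, with TMM factors) in every library, with the lowest of them at a mean of 165 CPM. Sums of the fibroblast and feeder markers lay between 3.85 and 12.1 CPM, of the primitive endoderm markers between 4.98 and 14.9 CPM and of the neuroectoderm markers between 30.6 and 66.8 CPM, and no listed marker was at 0 in all libraries. A ribosomal RNA locus took 26.1% of the counts of replicate 3 of dark WT cells at 4 h and 16.3% of those of lit LiTEC replicate 1 at 0 h, against a median of 9.87%. That dark WT library also held 15 of the highest or lowest values of the 43 genes, and replicate 2 of lit WT cells at 0 h held 11.

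All 43 genes were detected in every library, at levels that differed widely. Levels between genes are compared per kb of annotated exon, over the union of a gene's exons, which was known for 40 of them. Supt16, a subunit of the histone chaperone FACT, averaged 111 CPM per kb, and Polr2a, the largest polymerase subunit with the C-terminal domain, averaged 110.5 CPM per kb. Polr2m, which encodes the polymerase-associated protein Gdown1, stood at 104 CPM per kb, and Ssrp1, the other FACT subunit, at 83.3 CPM per kb. Supt16, Polr2a and Polr2m lay close together: the range of Supt16 over the 36 libraries was 95.1 to 131 CPM per kb, that of Polr2a 84.97 to 133 and that of Polr2m 86.2 to 121, so their order is not resolved by the spread. At the low end stood Leo1 (9.26 CPM per kb) and Cdc73 (9.57 CPM per kb), both of the PAF1 complex that travels with elongating polymerase, and Ell2 (8.93 CPM per kb), an elongation factor of the super elongation complex. Ell3, a paralogue of Ell and Ell2, averaged 0.208 CPM per kb, with 1 to 21 counts in a library, and shared 61.4% of its 50-base stretches with the neighbouring gene Serinc4. Its values are therefore uncertain and are left out of the ranges below.

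**Figure D1:**
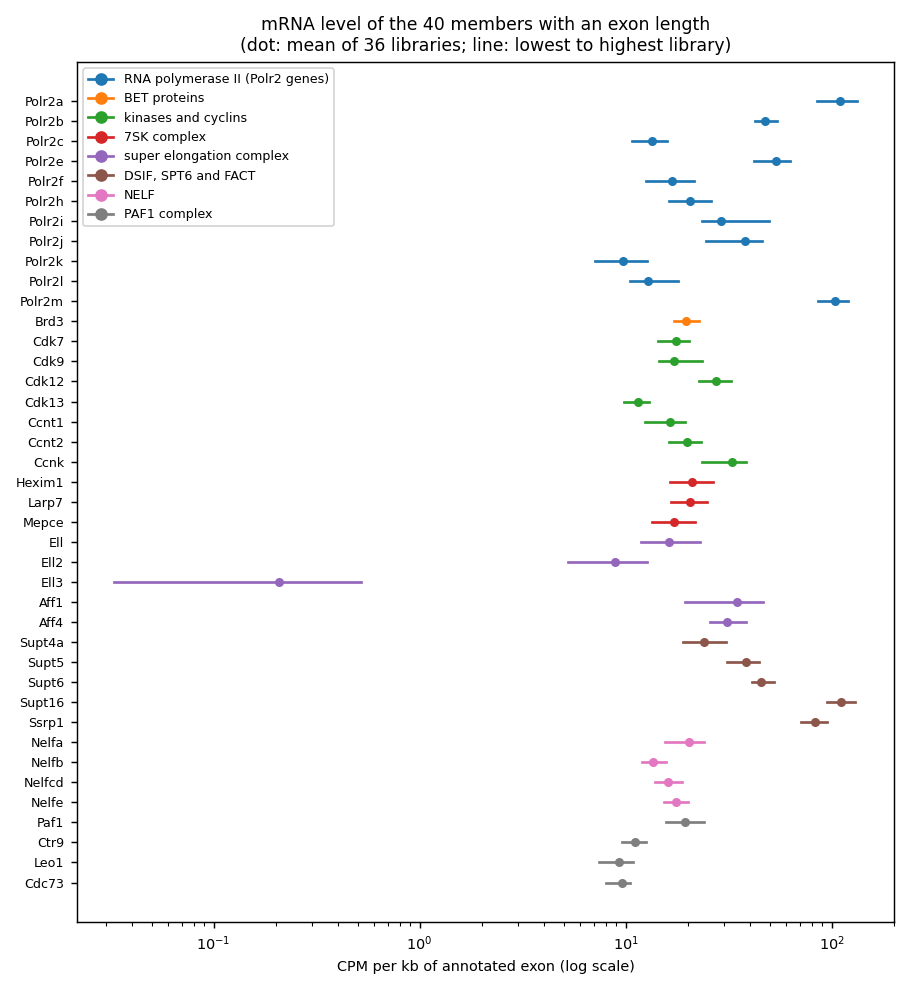
mRNA level of the 40 genes with an exon length, in CPM per kb of annotated exon on a log axis, ordered by role. Dots are means of 36 libraries and lines run from the lowest to the highest library. Supt16, Polr2a and Polr2m lie at 104 to 111 CPM per kb and Ell3 lies far below all others at 0.208.

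The stability of these levels over libraries also differed. Cdc73 had a coefficient of variation of 5.05% over the 36 libraries and Brd2, a BET protein that binds acetylated histones, 5.13%. Aff1, a scaffold of the super elongation complex, varied most of the well-expressed genes, at 26.6%, followed by Ell at 20.8% and Ell2 at 20.4%. Aff1 differed between the batches, with a mean of 222 CPM over the 12 libraries of batch 1 and 379 CPM over the 24 of batch 2. Values given here come from a fit with a batch term unless another is named.

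The first question of the design is how these mRNAs differed between lit and dark cells. Blue light acted without the light-controlled construct only in WT cells, so pooling the lines mixes both settings. With the lines pooled, Ccnt1 mRNA was called higher in lit cells straight after the light period and 1 h later. Ccnt1 encodes cyclin T1 of P-TEFb. In the fit with a batch term it was called in neither line alone. Both pooled calls were lost without a batch term and in some omissions of a single library. None of the other 42 mRNAs was called between lit and dark cells at any of the 3 times in the fit with a batch term. That fit does not pair libraries by replicate number. With the replicate number as a block, Ccnt2 at 0 h, Cdk12 at 1 h and Hexim1 at 4 h also passed with the lines pooled. Among 42 genes without Ell3, all fitted light effects in each line lay within 0.25 on the log2 scale, except for Polr2i and Polr2l in WT cells at 4 h (the lower of them, Polr2l, at −0.26).

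Ccnt1 read 148, 153 and 166.5 CPM in the 3 lit LiTEC libraries at 0 h, against 134, 141 and 143.5 CPM in dark LiTEC libraries. In WT cells at 0 h the lit libraries read 170.2, 179 and 178 CPM, against 155, 158 and 151.5 CPM in the dark. Every lit library of a line was above every dark library of that line. Over both lines the log2 fold change, lit minus dark, was 0.17 ± 0.04 (SE; edgeR quasi-likelihood adjusted p = 0.00892), with 0.13 in batch 1 and 0.18 in batch 2. At that time 5.37% of all tested genes were called in this comparison, so that 1 call among 43 is no larger a share than in the table as a whole.

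Within a line the same difference did not pass: it was 0.16 ± 0.06 in LiTEC cells (edgeR adjusted p = 0.265) and 0.18 ± 0.06 in WT cells (adjusted p = 0.0836). The light effect in LiTEC cells minus that in WT cells was −0.02 ± 0.08 (adjusted p = 0.990), so no difference between the lines was resolved at this precision. With the replicate number as a block, Ccnt1 passed in WT cells alone (adjusted p = 0.0189), and Ccnt2, the gene of cyclin T2, passed both in WT cells (0.18 on the log2 scale; adjusted p = 0.0498) and over both lines (0.13; adjusted p = 0.0345). The pooled Ccnt1 call was lost without replicate 3 of lit LiTEC cells at 0 h, where the log2 fold change was 0.14 and the edgeR adjusted p = 0.055.

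At 1 h, Ccnt1 read 125.5, 135 and 149 CPM in lit LiTEC libraries, against 113, 119 and 134 CPM in dark LiTEC libraries. Lit WT libraries read 146.5, 146.5 and 170.0 CPM at 1 h, against 132, 136 and 145.5 CPM in dark WT libraries. The WT groups did not overlap, while the lowest lit LiTEC library was below the highest dark one. Over both lines the log2 fold change was 0.16 ± 0.04 (edgeR adjusted p = 0.0342), in a comparison that called 1.14% of all genes. That call rests on few libraries: it was lost in 7 of 12 omissions of a single library, with an adjusted p of 0.146 without lit LiTEC replicate 3, 0.0959 and 0.115 without dark LiTEC replicate 1 or 2, 0.056 and 0.149 without lit WT replicate 1 or 3, and 0.0728 and 0.107 without dark WT replicate 1 or 2. The log2 fold change stayed between 0.13 and 0.19 in all 12.

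By 4 h, Ccnt1 read 150.0, 154.5 and 162 CPM in lit LiTEC libraries, against 142, 144 and 155 CPM in dark LiTEC libraries. In WT cells it read 159, 158 and 175 CPM in lit libraries, against 158, 161 and 162 CPM in dark libraries. The groups overlapped in both lines, and the log2 fold change over both was 0.06 ± 0.04 (edgeR adjusted p = 0.662).

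**Figure D2:**
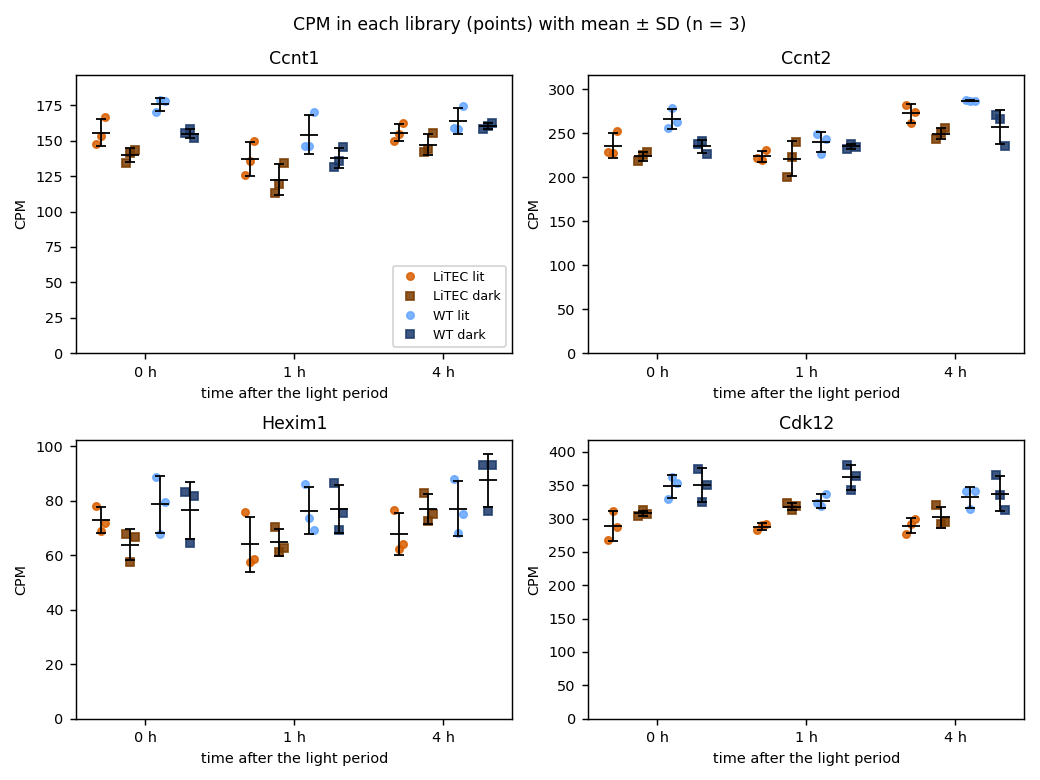
CPM of Ccnt1, Ccnt2, Hexim1 and Cdk12 in each library, by hours after the light period, for LiTEC lit, LiTEC dark, WT lit and WT dark cells. Points are libraries, and bars are means ± SD of 3. Lit libraries of Ccnt1 lie above the dark libraries of their line at 0 h, and the groups overlap at 4 h.

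Ccnt1 (chr15:98538689-98570923, minus strand, GRCm38, GENCODE M21) shares 695 bases of exon with an antisense gene, 9330020H09Rik, and the strand setting of the counting is not given in the sources used here, so reads of the pair may not have been told apart.

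For each line on its own, edgeR called 0 of the 43 genes at 0, 1 and 4 h, and DESeq2 also called 0. In LiTEC cells 3, 2 and 2 genes had an unadjusted p below 0.05 at 0, 1 and 4 h, and 0.934%, 0.115% and 0.011% of all tested genes were called. In WT cells 3, 3 and 5 genes had such a p, and 2.86%, 0.286% and 0% of all genes were called. The median standard error of these 6 sets of light effects was 0.07 on the log2 scale, and differences as large as −0.26 (Polr2l in WT cells at 4 h) were not called. That Polr2l difference includes the high value of dark WT replicate 3.

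The 2 genes with the smallest p in each line and time, Ccnt1 aside, were not called. Hexim1, the P-TEFb inhibitor, read 78.2, 68.8 and 71.7 CPM in lit LiTEC cells at 0 h, against 67.9, 57.3 and 66.5 CPM in the dark, a log2 difference of 0.19 ± 0.08 (edgeR adjusted p = 0.353). At 4 h it had the opposite sign, at 76.5, 62.2 and 64.3 CPM in lit LiTEC cells, against 83.0, 72.4 and 75.2 CPM in the dark (−0.19 ± 0.08; adjusted p = 0.701). Lit and dark libraries of Hexim1 did not overlap at 0 h and overlapped at 4 h. Ccnt2 read 282, 261 and 274 CPM in lit LiTEC cells at 4 h, against 243, 250.1 and 255 CPM in the dark (0.13 ± 0.06; adjusted p = 0.721), with no overlap.

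In WT cells Ccnt2 read 256, 279 and 263 CPM in lit libraries at 0 h, against 237, 241 and 227 CPM in the dark, again with no overlap (0.18 ± 0.06; edgeR adjusted p = 0.0892). Libraries of the lit and dark side did not overlap for 5 of the 43 genes in LiTEC cells at 0 h and for 9 in WT cells, against 11.6% and 14.9% of all tested genes. At 4 h in WT cells the smallest p belonged to Aff1, with means of 295 CPM in lit and 254 CPM in dark cells (0.20 ± 0.06; edgeR adjusted p = 0.423), followed by Ccnt2 (0.16 ± 0.06; adjusted p = 0.485). Aff1 read 202, 331 and 350 CPM in the lit libraries, against 185, 317 and 260 CPM in the dark ones. The widest gap was in replicate 3, whose dark library had the large ribosomal share. At 1 h the smallest p in WT cells belonged to Aff4, the other scaffold of the super elongation complex, with means of 425 CPM in lit and 485 CPM in dark cells (−0.19 ± 0.06; edgeR adjusted p = 0.309). In LiTEC cells at 1 h, Cdk12, a kinase of the polymerase tail, followed Ccnt1 with means of 288 CPM in lit and 318 CPM in dark cells (−0.14 ± 0.06; adjusted p = 0.677).

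Over both lines, 3 genes at 0 h, 3 at 1 h and 5 at 4 h had an unadjusted p below 0.05. Ccnt2 at 0 h (0.13 ± 0.04; edgeR adjusted p = 0.0601) and Cdk12 at 1 h (−0.15 ± 0.04; adjusted p = 0.0879) lay just outside the threshold, and DESeq2 placed both inside it, at adjusted p = 0.0448 and 0.0418. With the replicate block Cdk12 also passed at 1 h (adjusted p = 0.0408). At 4 h edgeR and DESeq2 called 0 of the 43, in a comparison that called 0.275% of all genes. There Ccnt2 had means of 280 CPM in lit and 253 CPM in dark cells (0.14 ± 0.04; adjusted p = 0.133), and Hexim1 72.3 CPM in lit and 82.1 CPM in dark cells (−0.19 ± 0.05; adjusted p = 0.146). Hexim1 passed at 4 h with the replicate block (adjusted p = 0.0266).

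**Figure D3:**
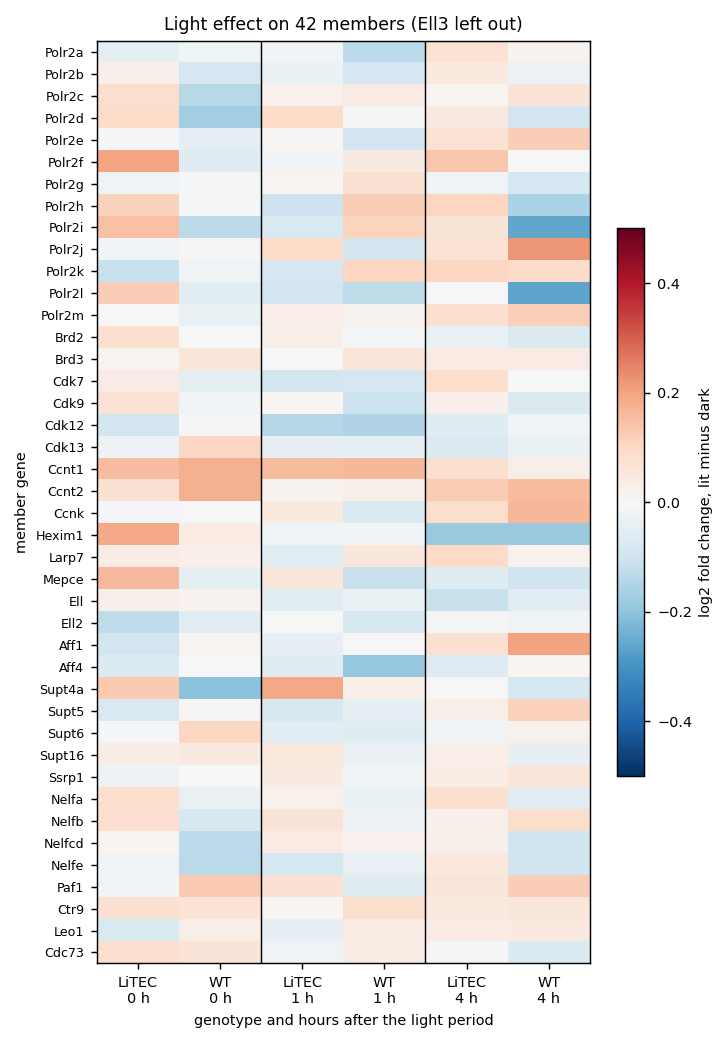
Light effect on 42 genes, as log2 fold change of lit minus dark, in LiTEC and WT cells at 0, 1 and 4 h after the light period. Red is higher in lit cells and blue lower. Ccnt1 is red in all 6 columns, with values from 0.03 to 0.18, and no single cell of the map was a call.

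The second question is whether LiTEC altered the response to light. The light effect in LiTEC cells minus that in WT cells was called by edgeR for 0 of the 43 genes at 0, 1 and 4 h, against 0.022%, 0% and 0% of all genes, and DESeq2 also called 0. At an unadjusted p below 0.05 there were 2, 0 and 1 genes. The smallest p at 0 h belonged to Polr2c, a subunit on which the polymerase assembles, with a difference of 0.23 ± 0.08 on the log2 scale (adjusted p = 0.680), and to Supt4a, a subunit of DSIF (0.33 ± 0.15; adjusted p = 0.777). At 1 h they belonged to Polr2h (−0.23 ± 0.13; adjusted p = 1.0) and Aff4 (0.13 ± 0.09; adjusted p = 1.0), and at 4 h to Polr2h, a subunit shared by the 3 nuclear polymerases (0.27 ± 0.13; adjusted p = 1.0), and Polr2i (0.33 ± 0.17; adjusted p = 1.0). The median standard error of these differences was 0.10, so small differences between the lines were not detectable. Polr2h and Polr2i had their highest values of all 36 libraries in dark WT replicate 3 at 4 h, the library with the large ribosomal share.

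The lines themselves differed far more than lit and dark cells did. In the dark, LiTEC cells had lower mRNA levels than WT cells for 23 of the 43 genes and higher levels for 6, counted over the 9 dark libraries of each line with a mean over the times. The genes with higher levels were Ell, Ell2, Aff1, Larp7, Polr2c and Cdk13, of which the first 3 belong to the super elongation complex. Without dark WT replicate 3 at 4 h, the library with the largest ribosomal share, 30 genes were called in place of 29. Genes with lower levels included Polr2a, Polr2b, Polr2d and Polr2f of the polymerase, both DSIF subunits, both FACT subunits and Cdk9. Over all tested genes 47.6% were called in this comparison, 23.9% higher and 23.7% lower, against 67.4%, 14.0% and 53.5% of the 43. Since well-expressed genes are called more easily, the shares among the 10528 genes averaging 5 CPM or more are also given: 57.9% called, 25.1% higher and 32.8% lower. The median log2 fold change was −0.14 over the 43 genes, 0.00 over all tested genes and −0.03 over those with at least 5 CPM.

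These differences describe the 2 lines as such, which can differ in more than LiTEC. Summed markers of other cell types also differed in level between the lines: primitive endoderm markers averaged 11 CPM in LiTEC and 7.37 CPM in WT libraries, fibroblast and feeder markers 5.65 and 8.61 CPM in LiTEC and WT libraries, and neuroectoderm markers 52.1 and 42.2 CPM in LiTEC and WT libraries, while naive stem cell markers averaged 4020 CPM in LiTEC and 4090 CPM in WT libraries. Their part in the results was not tested. In bulk RNA, fewer cells of a type and less RNA per cell cannot be told apart.

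Among the 13 genes named Polr2, 12 subunits and Gdown1, 1 was higher and 7 lower in dark LiTEC cells. Polr2a (chr11:69733997-69758637, minus strand, GRCm38) read 605 CPM in the lowest, 676 in the median and 815 in the highest of 9 dark LiTEC libraries, against 835, 875 and 942 CPM in dark WT libraries. No LiTEC library reached the lowest WT library, and the log2 fold change was −0.36 ± 0.04 (edgeR adjusted p = 1.12e-08), with −0.22 in batch 1 and −0.44 in batch 2. Polr2f, a subunit shared by the 3 nuclear polymerases, read 32.7, 36.1 and 40.8 CPM (lowest, median and highest) in dark LiTEC libraries, against 43.6, 49.2 and 56.0 CPM in dark WT libraries. The 2 lines did not overlap for Polr2f either, at −0.44 ± 0.05 (adjusted p = 2.33e-08).

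Polr2c went the other way. It read 70.4, 75.8 and 80.2 CPM (lowest, median and highest) in dark LiTEC libraries, against 57.6, 65.3 and 70.0 CPM in dark WT libraries. Again the lines did not overlap, at 0.23 ± 0.03 (edgeR adjusted p = 5.17e-07), and the lit libraries gave 0.28 ± 0.03 (adjusted p = 1.32e-08). Polr2c shares 953 bases of exon with the antisense gene Dok4 and 11.2% of its 50-base stretches with other genes, so its level is less certain than that of Polr2a. Polr2d, a subunit of the polymerase stalk, was lower by a log2 fold change of −0.37 and Polr2b, the second-largest subunit, of −0.17, while Polr2g, the other stalk subunit, did not pass (−0.04). Polr2e (−0.20), Polr2i (−0.21) and Polr2j (−0.16) were also called lower. Polr2j and Polr2i were fragile calls: Polr2j was lost in 11 of 18 omissions of a single library, and Polr2i without dark WT replicate 3 at 4 h (adjusted p = 0.0769).

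Of the super elongation complex, Ell, Ell2 and Aff1 were higher in LiTEC cells. Ell (chr8:70539457-70592858, plus strand), an elongation factor first known as a fusion partner in leukaemia, read 54.4, 58.1 and 71.2 CPM (lowest, median and highest) in dark LiTEC libraries, against 37.7, 41.0 and 44.6 CPM in dark WT libraries. The lines did not overlap, and the log2 fold change was 0.55 ± 0.04 (edgeR adjusted p = 1.31e-13), at 0.55 in each batch. Ell2 read 83.0, 104 and 125 CPM in dark LiTEC libraries, against 51.4, 75.7 and 91.9 CPM in dark WT libraries. The highest WT libraries reached into the LiTEC range for Ell2, at 0.44 ± 0.05 (adjusted p = 1.87e-08).

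Aff1 read 246, 404 and 440 CPM (lowest, median and highest) in dark LiTEC libraries, against 185, 317 and 363 CPM in dark WT libraries. Pooled libraries of the lines overlapped for Aff1, with batch 1 lower in both lines, but within each batch every LiTEC library was above every WT library. The log2 fold change was 0.39 ± 0.04 (edgeR adjusted p = 1.49e-10), with 0.45 in batch 1 and 0.36 in batch 2. Without a batch term it was not called (adjusted p = 0.109). Aff4, the scaffold that shares its role, was lower in LiTEC cells, with a median of 394 CPM, against 465 CPM in WT cells (−0.21 ± 0.04; adjusted p = 1.38e-05). Of the 5 genes grouped here under the complex, 3 were thus higher, 1 lower and Ell3 not called. The complex has more parts than these, among them Mllt1 and Mllt3, which were not called between the lines. Cdk9 and Ccnt1 of P-TEFb, which the complex brings to genes, were called lower.

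Of the kinases and cyclins, 1 of 7 was higher and 5 lower in dark LiTEC cells. Those lower were Cdk7, the kinase of the general factor TFIIH (−0.15), Cdk9 (−0.16), Ccnt1 (−0.15), Cdk12 (−0.18) and Ccnk, the cyclin partner of Cdk12 and Cdk13 (−0.26). Cdk13 was higher (0.12). Of the 7SK complex, Larp7, which binds and stabilises the RNA, was higher (0.25 ± 0.04; edgeR adjusted p = 6.24e-06), while Hexim1 (−0.23) and Mepce, the enzyme that caps the RNA (−0.20), were lower. Larp7 shares 15% of its 50-base stretches with Gm12666, and its difference was 0.11 in batch 1 and 0.32 in batch 2.

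Of DSIF, SPT6 and FACT, 0 of 5 were higher and 4 lower. Supt4a read 17.9, 20.0 and 22.7 CPM (lowest, median and highest) in dark LiTEC libraries, against 23.3, 25.1 and 29.1 CPM in dark WT libraries, with no overlap. Its log2 fold change was −0.36, that of its partner Supt5 −0.22, and those of the FACT genes Supt16 and Ssrp1 −0.14 and −0.13. Supt6, a histone chaperone that rides with the polymerase, was not called (0.02). Supt4a shares 18.3% of its 50-base stretches with its near copy Supt4b, so part of its counts may belong there. Of the 4 NELF genes, Nelfa (−0.32) and Nelfcd (−0.14) were lower, and Nelfb (−0.08) and Nelfe (−0.03) were not called. Of the 4 genes grouped here under the PAF1 complex only Cdc73 was called (−0.08). That call was lost in 7 of 18 omissions of a single library. The complex has more parts than these, among them Wdr61 and Rtf1, which are counted below with other elongation factors. Both were called lower in dark LiTEC cells, Wdr61 by −0.32 (edgeR adjusted p = 3.42e-07) and Rtf1 by −0.16 (adjusted p = 6.08e-05). Of the BET genes Brd3 was lower (−0.14) and Brd2 was not called (0.05).

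**Figure D4:**
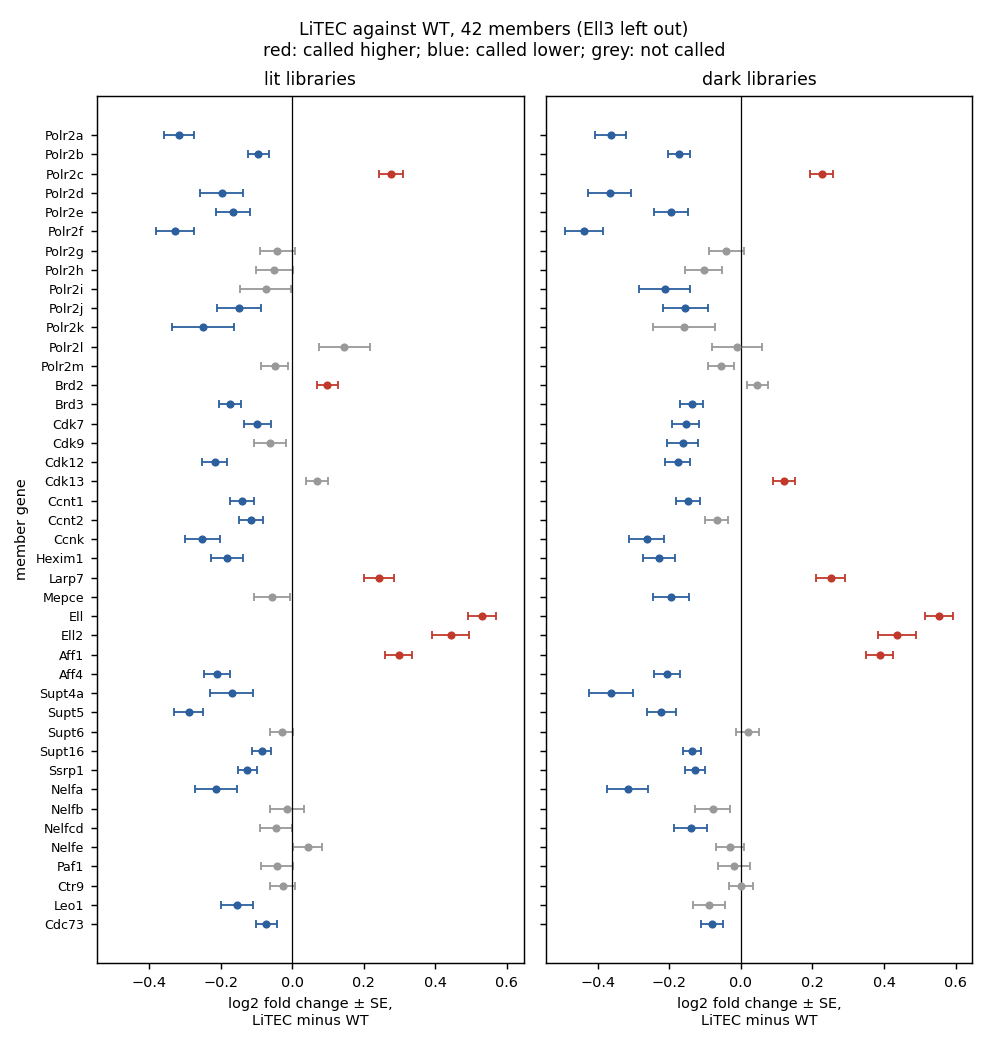
LiTEC minus WT log2 fold change with its standard error for 42 genes, in lit libraries (left) and dark libraries (right), 9 libraries a line in each. Red points were called higher, blue points lower, and grey points were not called. Ell, Ell2 and Aff1 lie between 0.30 and 0.55 in both panels, and Polr2a and Polr2f lie between −0.32 and −0.44.

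The lines were also compared over their lit libraries. These are other libraries than the dark ones, but lit and dark libraries of the same line, time and replicate number deviated together from their group means (correlations of 0.231 to 0.511 across genes), so the comparisons are not independent. In lit libraries 22 genes were lower and 6 higher in LiTEC cells, 65.1% of the 43, against 43.4% of all tested genes (22.2% higher and 21.2% lower) and 53.3% of those with at least 5 CPM. Without lit WT replicate 2 at 0 h 26 genes were called, and without lit LiTEC replicate 1 at 0 h 28. Of the 29 genes called in the dark and the 28 called in the light, 24 were called in both and in the same direction, 5 higher and 19 lower, and 0 in opposite directions. The shared genes make up 82.8% of the dark list and 85.7% of the lit list. Cdk13, Mepce, Cdk9, Nelfcd and Polr2i were called in the dark and not in the light, and Ccnt2, Leo1, Brd2 and Polr2k in the light and not in the dark. The test of the light effect between the lines called 0 of these 9 at any single time. A line difference that changed with light was thus not shown for them, and its mean over the times was not tested.

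In lit cells Ell read 50.9, 59.5 and 66.9 CPM (lowest, median and highest of 9) in LiTEC libraries, against 36.9, 41.2 and 43.8 CPM in WT libraries, at 0.53 ± 0.04 (edgeR adjusted p = 4.24e-13). Polr2c read 72.2, 78.5 and 83.7 CPM in lit LiTEC libraries, against 56.8, 65.2 and 68.9 CPM in lit WT libraries. Neither gene overlapped between the lines. Ell2 read 87.4, 101 and 118 CPM in lit LiTEC libraries, against 55.7, 72.9 and 93.6 CPM in lit WT libraries (0.44 ± 0.05; adjusted p = 1.69e-08). Aff1 read 213, 411 and 440 CPM in lit LiTEC libraries, against 184, 338 and 360 CPM in lit WT libraries (0.30 ± 0.04; adjusted p = 4.68e-08). For both the lines overlapped, and for Aff1 every LiTEC library was again above every WT library within a batch. Polr2a read 600.5, 675.5 and 818.5 CPM in lit LiTEC libraries, against 786, 878 and 908 CPM in lit WT libraries, with some overlap (−0.32 ± 0.04; adjusted p = 2.03e-07). Supt5 read 179, 195 and 228 CPM in lit LiTEC libraries, against 230.2, 245.5 and 256 CPM in lit WT libraries, with no overlap (−0.29 ± 0.04; adjusted p = 3.69e-07). Over the 9 libraries of each line, the lines did not overlap for 7 of the 43 genes in the dark and for 5 in the light, against 7.87% and 7% of all tested genes. Ell, Polr2c and Polr2f were free of overlap in both.

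The dark libraries also carry a time course, since cultures without light were sampled at the same 3 times. At 1 h, Ccnt1 was the only one of the 43 genes called. It fell to 113, 119 and 134 CPM in LiTEC and 132, 136 and 145.5 CPM in WT libraries at 1 h, against 134, 141 and 143.5 CPM in LiTEC and 155, 158 and 151.5 CPM in WT libraries at 0 h. All WT libraries at 1 h were below those at 0 h, while the highest LiTEC library at 1 h reached the lowest at 0 h. The log2 fold change was −0.18 ± 0.04 (edgeR adjusted p = 0.0149), in a comparison that called 1.31% of all genes, and the call was lost without dark LiTEC replicate 2 at 1 h (adjusted p = 0.0504). This comparison and the light effects at 0 and 1 h share their dark libraries.

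By 4 h in the dark, 9 of the 43 genes were called, 4 higher and 5 lower than at 0 h, or 20.9%, against 15.5% of all tested genes (7.82% higher and 7.65% lower) and 21.8% of those with at least 5 CPM. Ell, Hexim1, Ccnt2 and Cdk9 rose, and Polr2m, Ssrp1, Ell2, Polr2j and Larp7 fell. Of these, Hexim1 binds P-TEFb, and Ccnt2 and Cdk9 are parts of it. Within both lines all 9 moved in the direction of the pooled call, and so they did in both batches.

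Ell read 43.4, 55.7 and 71.2 CPM (lowest, median and highest of 6 libraries) at 4 h, against 37.7, 47.4 and 58.1 CPM at 0 h. The ranges pooled over the lines overlap, but within each line every library at 4 h was above every library at 0 h. LiTEC libraries read 66.8 to 71.2 CPM at 4 h, against 54.4 to 58.1 CPM at 0 h. WT libraries read 43.4 to 44.6 CPM at 4 h, against 37.7 to 40.3 CPM at 0 h. The log2 fold change of Ell was 0.23 ± 0.05 (edgeR adjusted p = 0.0012), with 0.29 in LiTEC and 0.16 in WT cells. Hexim1 read 72.4, 79.7 and 93.0 CPM at 4 h, against 57.4, 67.2 and 83.3 CPM at 0 h (0.23 ± 0.05; adjusted p = 0.00403). Ccnt2 read 235, 253 and 270.3 CPM at 4 h, against 218, 228 and 241 CPM at 0 h (0.14 ± 0.04; adjusted p = 0.0142). For Hexim1 and Ccnt2 too, the 2 times overlapped with the lines pooled. Within LiTEC cells the times did not overlap for either gene, and within WT cells they overlapped for both. In lit libraries the Hexim1 difference between 4 h and 0 h was −0.11 in LiTEC and −0.03 in WT cells, against 0.26 in LiTEC and 0.19 in WT cells in the dark. These values use the same libraries as the light effects on Hexim1 at 0 and 4 h and are not independent of them.

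Of the genes that fell, Polr2m read 209, 224.5 and 238 CPM at 4 h, against 234.5, 260.0 and 292 CPM at 0 h (−0.22 ± 0.04; edgeR adjusted p = 0.00108). Ssrp1 read 267, 288 and 320 CPM at 4 h, against 285, 324 and 345 CPM at 0 h (−0.15 ± 0.03; adjusted p = 0.00212). Ell2 read 51.4, 82.8 and 109 CPM at 4 h, against 71.0, 96.0 and 125 CPM at 0 h (−0.24 ± 0.06; adjusted p = 0.00889). The paralogues Ell and Ell2 thus moved in opposite directions over these 4 h, and both were higher in LiTEC than in WT cells.

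Polr2j (−0.25 ± 0.08; edgeR adjusted p = 0.0254), Larp7 (−0.16 ± 0.05; adjusted p = 0.0321) and Cdk9 (0.16 ± 0.05; adjusted p = 0.0439) were weaker calls. The Polr2j difference was −0.06 in LiTEC and −0.43 in WT cells. Polr2j was lost in 5 of 12 omissions of a single library, Larp7 in 6 and Cdk9 in 9, with adjusted p-values up to 0.101, 0.138 and 0.192. Cdk9 kept its call without dark LiTEC replicate 2 at 4 h and dark WT replicate 1 or 2 at 4 h. The library with the large ribosomal share, dark WT replicate 3 at 4 h, read 109 CPM for Cdk9 and 27.2 CPM for Polr2j, the highest and lowest values of those genes among the dark libraries. Without it 8 genes were called, with Cdk9 at 0.09 (adjusted p = 0.192) and Polr2j at −0.15 (adjusted p = 0.101) not among them and Cdk13 added. Ell, Hexim1, Ccnt2, Polr2m, Ssrp1 and Ell2 kept their calls in all 12 omissions. Of the 9 calls, 3 were left in batch 2 alone, 4 without a batch term and 5 in a fit of the compared groups only, and Ell, Polr2m and Ssrp1 were called in all 3 of these. Ccnt2 was lost in batch 2 alone (edgeR adjusted p = 0.126), Hexim1 there (0.0827) and without a batch term (0.106), and Ell2 in all 3 (adjusted p = 0.0659 in batch 2 alone, 0.215 without a batch term and 0.0596 with the compared groups only).

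**Figure D5:**
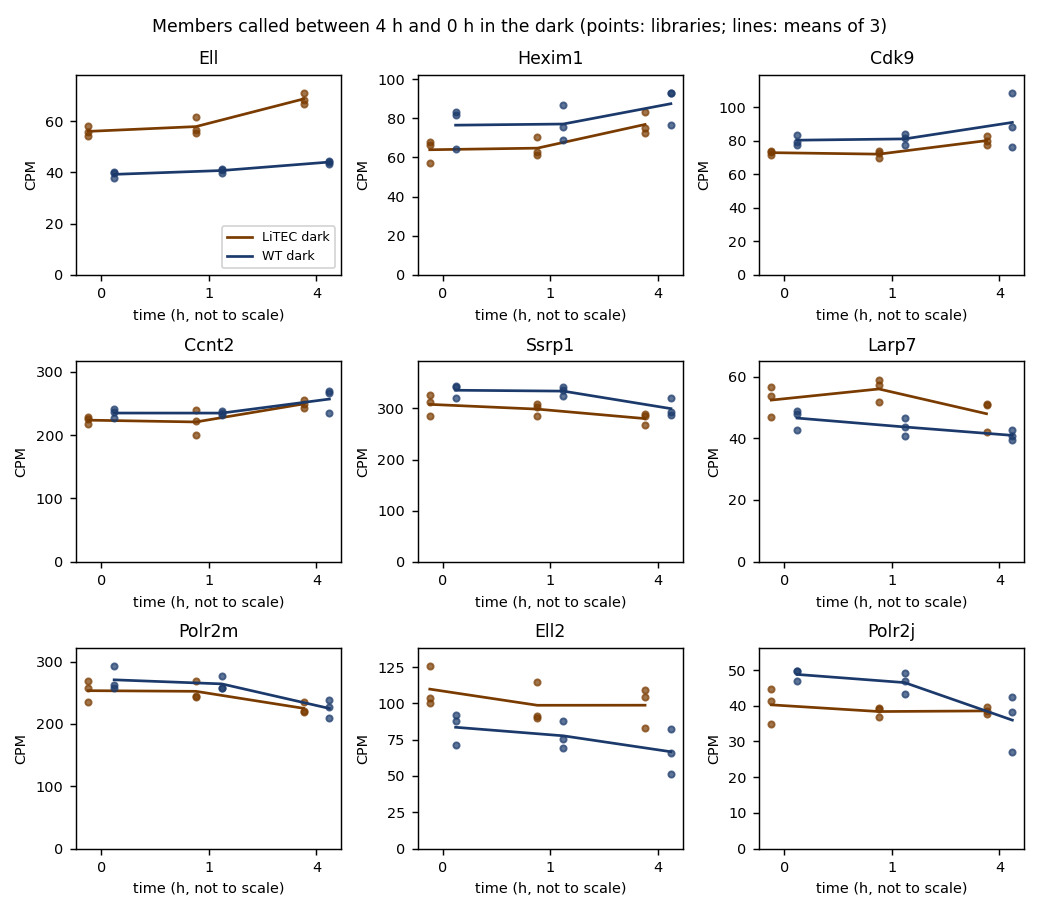
CPM of the 9 genes called between 4 h and 0 h in dark cells, for LiTEC (brown, left) and WT (blue, right) at 0, 1 and 4 h. Points are libraries and lines join means of 3. Ell, Hexim1, Cdk9 and Ccnt2 are higher at 4 h in both lines and the other 5 lower.

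To show the sequence in front of the genes that rose in the dark, stretches upstream of the RefSeq start are printed for Ccnt2, Hexim1 and Ell, each trimmed to leave out annotated exons. Cdk9 is not shown, since under 60 bases were left of its stretch. The sequences are from RefSeq (GRCm38.p6), plus strand, 5′ to 3′. That of Ell lies inside the gene as GENCODE M21 draws it, between its earliest start and the start RefSeq gives. Capitals mark a CCAAT box (CCAAT) or a GC box (GGGCGG), searched on both strands, with overlapping matches allowed.
Ccnt2, chr1:127774093-127774163: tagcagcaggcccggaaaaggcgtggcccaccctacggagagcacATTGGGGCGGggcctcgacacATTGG
Hexim1, chr11:103116075-103116230: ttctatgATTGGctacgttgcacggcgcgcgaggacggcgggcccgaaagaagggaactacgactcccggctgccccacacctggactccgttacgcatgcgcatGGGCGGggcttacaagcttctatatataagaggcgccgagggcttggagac
Ell, chr8:70539493-70539674: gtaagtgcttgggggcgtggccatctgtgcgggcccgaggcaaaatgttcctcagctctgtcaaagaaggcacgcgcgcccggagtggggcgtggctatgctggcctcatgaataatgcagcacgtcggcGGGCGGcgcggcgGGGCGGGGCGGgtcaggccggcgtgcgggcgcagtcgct

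The Ccnt2 stretch holds 2 CCAAT boxes and 1 GC box, that of Hexim1 1 of each and that of Ell 3 GC boxes. Over the 250 bases upstream of the start, 36 of the 43 genes had a total of 42 promoters in the table. A GC box was found in 33 of the 42 (78.6%), against 32.7% of the 32851 promoters in the table, and a CCAAT box in 12 (28.6%), against 33.8%. That background takes all promoters in the table whatever the expression of their genes, and a share among expressed genes was not computed. A TATA box (TATAAA) was found in 3 (7.14%), against 12.4%, and the core of a heat shock element (GAANNTTC) in 4 (9.52%), against 6.69%. These are matches of letters and not sites of binding. Only the letters TATAAA were counted as a TATA box, so the tatataag in the Hexim1 stretch was neither marked nor counted.

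Other genes of the transcription machinery, taken from 4 companion lists, are set beside the 43. Between the lines, 47.6% of all tested genes were called in the dark and 43.4% in the light. Among those with at least 5 CPM the shares were 57.9% and 53.3%. At most 4 called genes are named per list and comparison, those with the smallest adjusted p, so a gene named for 1 comparison may have been called in others too. Of 30 general transcription factor genes, 5 were higher and 13 lower in dark LiTEC than in dark WT cells (60% called). In lit cells 7 were higher and 13 lower (66.7% called). In the dark the called genes included Gtf2h5 (−0.35), Gtf2h1 (−0.24) and Ercc2 (−0.28) of TFIIH, all lower, and Taf10 of TFIID (0.19), which was higher. In lit cells Gtf2h1 was lower (−0.26), and Gtf2e2 of TFIIE (0.22), Gtf2f2 of TFIIF (0.28) and Taf10 (0.20) were higher. Of 26 other elongation factors and factors of the polymerase tail, 2 were higher and 12 lower in LiTEC cells in the dark. The counts were the same in the light (53.8% called in each). Rprd1a, which binds the tail, was higher by 0.52 in the dark and 0.46 in the light, and Wdr61 of the PAF1 and Ski complexes was lower by −0.32 and −0.24. Rnmt, the cap methyltransferase (−0.27), and the tail phosphatase Ctdp1 (−0.23) were lower in the dark, and Chd2 (−0.24) and Rpap2 (−0.25) in the light.

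Of 29 measured Integrator and 3′ end genes, 2 were higher and 10 lower in dark LiTEC cells, and 5 and 7 in lit ones. That was 41.4% called in each, below the 47.6% (dark) and 43.4% (lit) of all tested genes. Ints13 of Integrator was lower by −0.23 in the dark and −0.27 in the light and Cpsf2 by −0.21 and −0.15, while Cpsf3, the nuclease that cleaves pre-mRNA at its 3′ end, was higher by 0.15 and 0.14. Ints3 was lower in the dark (−0.20) and Nudt21 higher in the light (0.16). Of 19 subunits of RNA polymerase I or III that polymerase II lacks, 0 were higher and 13 lower in dark LiTEC cells. In lit ones 2 were higher and 11 lower. That was 68.4% called in each, near the 67.4% (dark) and 65.1% (lit) of the 43. Polr1b, the second-largest subunit of polymerase I, was lower by −0.38 in the dark and −0.35 in the light, Polr1a, its largest, by −0.23 and −0.27, and Polr3g by −0.24 and −0.17. Polr1d was lower in the dark (−0.28) and Polr1c in the light (−0.20).

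At 4 h in the dark, 1 general factor gene was higher than at 0 h and 6 lower, among them Gtf2a1 of TFIIA (−0.30), Gtf2f1 (−0.28) and Gtf2f2 (−0.25) of TFIIF and Taf12 of TFIID (−0.23). Of the other elongation factors Ccnl2, a cyclin L gene (0.28), and Mllt1 (0.19) were higher and Mllt3 (−0.36) lower; Mllt1 and Mllt3 encode the related readers ENL and AF9, which belong to the super elongation complex. Of the 3′ end genes 6 were higher and 5 lower, with Pcf11, a termination factor, lower by −0.52 ± 0.05 (edgeR adjusted p = 6.67e-08), Ints3 lower (−0.21) and Cpsf7 (0.14) and Cpsf4 (0.19) higher. Of the polymerase I and III subunits 0 were higher and 4 lower, namely Twistnb (−0.19), Cd3eap (−0.26), Crcp (−0.30) and Polr3b (−0.13). At 1 h in the dark, 1 companion gene was called, Ccnl1, the other cyclin L gene (0.24 ± 0.04; adjusted p = 0.00247). Ccnl1 was also higher in lit than in dark cells of both lines at 0 h (0.21 ± 0.04; adjusted p = 0.00332), where Ints14 was lower (−0.18 ± 0.05; adjusted p = 0.0451).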

How the data were processed

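The 36 libraries held RNA from mouse embryonic stem cells, extracted with TRIzol and prepared with a stranded mRNA kit, per the labels' protocols. The authors deposited 1 table of raw counts, unnormalized whole numbers for each gene and library. The submitters' processing notes name FastQC, featureCounts and the build mm10 (GRCm38). Which aligner and versions were used, and how strand and multi-mapping reads were handled, was not given in the sources used here, so genes that overlap or share sequence are uncertain. Coordinates are from GENCODE M21, which held 40 of the 43 genes by identifier.

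Low genes were removed with filterByExpr in edgeR 4.0.16 (minimum count 10; limma 3.58.1, R 4.3.3), leaving 18193 with at least 99.879% of each library's counts. All libraries entered 1 quasi-likelihood fit (glmQLFit, glmQLFTest) on TMM-scaled sizes, with 12 group means, a batch term and 23 residual degrees of freedom. Benjamini-Hochberg adjustment ran across the 18193 genes separately for each of 16 comparisons, and adjusted p under 0.05 made a call. Standard errors were derived as the absolute log2 fold change over the root of F. CPM used TMM-scaled sizes, and within-batch differences are of mean log2(CPM + 0.5). The fitting code was tested on simulated data.

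Libraries with the same replicate number deviated together from their group means across all 12 groups, lines and times included: the correlation across genes was over 0.1 in 66, 66 and 65 of 66 pairs of groups for replicates 1, 2 and 3 (lowest 0.0977), and in 18 of 18 pairs of lit and dark libraries of 1 line and time (lowest 0.231, median 0.374). These values include the batch difference. The difference between replicates 2 and 3, both of batch 2, correlated at 0.108 or more (median 0.195) in 66 of 66 pairs of groups. The numbers were taken to pair the libraries on these data, since the labels give only the batch. The fit with a batch term did not use this pairing, which entered only the replicate block named next. Alternatives were a replicate block, no batch term, only batch 2, RLE normalization, DESeq2 1.42.0, other filters (none, or a mean of 5 CPM), a fit restricted to the groups compared, and omission of single libraries. Any of the 43 genes could be named. Full values went to called genes (the 6 with the smallest adjusted p where more were called) or, where none was called, to the 2 with the smallest p, and up to 4 called genes were named from each companion list. The 43 genes, the companion lists and the tests were chosen with earlier results of these data known.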

Additional observations from a re-analysis of the deposited data

How the results depend on the processing

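No called gene changed the direction of its difference under any alternative, while several counts of called genes moved. The count of called genes in light minus dark over both lines at 0 h, 1 in the fit with a batch term, was 2 with DESeq2 and 2 with the replicate block, and 0 in batch 2 alone and 0 without a batch term. At 1 h that count, also 1, was 2 with DESeq2 and 2 with the replicate block, and 0 in batch 2 alone, 0 with the compared groups only, 0 without a batch term and 0 without a filter. Over both lines at 4 h it was 1 with the replicate block in place of 0, and in WT cells at 0 h 2 with the replicate block and 1 with a mean of at least 5 CPM, in place of 0. For 1 h minus 0 h in the dark the count of 1 became 0 in batch 2 alone and 0 without a batch term. For 4 h minus 0 h in the dark the count of 9 became 3 in batch 2 alone, 5 with the compared groups only and 4 without a batch term, while the replicate block gave 12. Batch 2 alone has 2 libraries a group in place of 3, and the cause of the other shifts was not tested.

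Leaving out 1 library at a time gave 27 to 30 called genes for LiTEC minus WT in the dark, 23 to 29 in the light, 6 to 10 for 4 h minus 0 h in the dark, 0 to 1 for 1 h minus 0 h in the dark and for the light effect over both lines at 0 and 1 h, and 0 to 0 elsewhere. Of the 69 calls of single genes, 69 were kept with the replicate block, with RLE size factors and with DESeq2, 66 with a mean of at least 5 CPM, 63 without a filter, 61 with the compared groups only, 55 without a batch term and 50 in batch 2 alone. Omitting single libraries kept 1087 calls and lost 83. Without a batch term Aff1 was lost in both comparisons of the lines (edgeR adjusted p = 0.109 in the dark and 0.236 in the light). The replicate block ended none of the 69 calls; beside the added calls given with the light results it added Polr2l to the difference of the lines in the light and Brd2, Aff1 and Polr2c at 4 h in the dark. With 3 libraries a group and a median standard error of 0.07 for a light effect in 1 line, small light effects were not detectable.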
